A study of Parasteatoda tepidariorum with 16 samples.

Results

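The histone and chromatin regulator genes of the common house spider *Parasteatoda tepidariorum* were taken as all gene models whose annotated product names a histone, chromatin, polycomb, a chromodomain or chromobox, SWI/SNF, the nucleosome, a bromodomain, a DNA methyltransferase, methyl-CpG or a high mobility group protein. They were 191 of 27990 gene models, or 0.682%, and belonged to 171 NCBI genes, of which 17 were split into several models (37 models). They were followed in RNA-seq libraries of small cell pools drawn with glass capillaries from the germ disc, the sheet of cells that gives rise to the spider's body. All embryos were wild type, of the Osaka isolate. Stage-3 embryos (20 h after egg laying) gave 2 libraries of central cells (c cells), 3 of intermediate cells (i cells) and 3 of peripheral cells (p cells), and stage-4 embryos (28 to 29 h) and early stage-5 embryos (31 to 32 h) gave 2 libraries each of c and p cells, 16 libraries in all. Libraries are named here by stage, region and replicate, so that st5e_c1 is the first c library of early stage 5. The labels name 4 mothers. One gave the c and p cells of stage 3, another the i cells, and stage 4 and early stage 5 had 1 mother each, so that stage and mother cannot be told apart, and neither can i cells and their mother.

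DNA in the nucleus is wound around octamers of the core histones H2A, H2B, H3 and H4 and is packed further by linker histone H1. Chaperones deliver histones to DNA, remodelers slide or evict nucleosomes with ATP, and enzymes add or remove methyl and acetyl groups on histone tails, which proteins with chromodomains or bromodomains recognize. In early animal embryos much of the histone supply for the fast cleavage cycles is laid down by the mother, and the canonical histone genes, used during DNA replication, are distinct from variant genes such as H3.3 that are used in any phase of the cell cycle. The mRNAs of canonical histones usually end in a stem-loop and not in a poly(A) tail, and these libraries were made from poly(A) RNA, so that the levels below are those of polyadenylated transcripts alone.

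The libraries held 4566853 to 10500376 counts on genes, and the members took 2.69% to 4.14% of them. Levels are given as CPM (counts scaled to a common library size by TMM over the 16 libraries). The limit that a count of 0 allows, 3 counts, stood at 0.255 to 0.774 CPM in these libraries. These limits reflect counting error alone, because PCR copies without molecular identifiers are not independent molecules. Of the 191 members, 149 had counts, 73 had counts in all 16 libraries, and 94 to 135 reached 1 CPM in a given library, with the 4 highest numbers (128 to 135) at early stage 5. The number of all genes at 1 CPM varied from 4511 in st4_p1 to 10500 in st5e_c1. Of 122 members with a mean of at least 10 CPM, 58 (47.5%) had within a single group both a library at the limit of 3 counts and another at 10 CPM or more, against 4440 of 6932 genes (64.1%). The region labels were matched by *g4238*, an Ets factor that the study picked from these libraries (403 to 2269.7 CPM in c libraries, at most 1.28 CPM elsewhere), and at early stage 5 by *Pt-hh*, the spider hedgehog gene (0.258 and 8.15 CPM in c cells, 435 and 209.9 CPM in p cells).

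Compared per length, the members ran from no count to the most abundant messages of the germ disc. By mean RPKM (reads scaled to gene length and library size by the authors) over the 16 libraries, HMGB2 (*g7722*), a protein that bends DNA, stood first at 2180.3 RPKM and ranked 25th of all gene models. The chromobox protein CBX3-like (*g18803*), whose vertebrate namesake binds methylated histone H3 in heterochromatin, followed at 1600.2 RPKM, an H2A gene (*g7601*) at 1540.4 RPKM and the AT-hook protein HMG-I/HMG-Y-like (*g16167*) at 1269 RPKM. Mi-2 (*g7368*, 962 RPKM) led the remodelers, and CHZ1 (*g15449*, 826 RPKM) was the highest chaperone, ahead of NAP1-like 1 (*g13912*, 681 RPKM). The deacetylase HDAC2 (*g13842*) stood at 265 RPKM and the bromodomain protein BRD2 (*g13141*) at 244 RPKM. The acetyltransferase class was led by the DNA methyltransferase 1-associated protein DMAP1 (*g25185*, 71.1 RPKM), a NuA4 subunit and the only product that the DNA methyltransferase term matched. The methyltransferases were led by SETDB1 (*g4240*, 63.1 RPKM), the demethylases by LSD1 (*g1520*, 21.8 RPKM) and the polycomb proteins by EED (*g10698*, 33.7 RPKM). No count fell on 42 members, among them 22 of 24 models named SETMAR-like, 6 of 7 named PRDM9 and 6 of 22 core histone models.

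The stages were compared over the 13 c and p libraries, each stage taken as the mean of its c and p cells, in edgeR's quasi-likelihood test, with p-values adjusted by the Benjamini-Hochberg method over every gene in the fit. A positive log2 fold change means a higher level at the later stage. Early stage 5 differed from stage 3 in 24 of 146 members tested, or 16.4%, where 6.7% of all 13306 genes tested were called. Of these 24 members 16 were higher (3.95% of all genes) and 8 lower (2.74% of all genes) at early stage 5. Stage 4 differed from stage 3 in 17 members, or 11.6% (background 8.58%), with 10 higher (4.95%) and 7 lower (3.63%). Between early stage 5 and stage 4, 4 members were called, or 2.74% (background 0.947%), 2 higher (0.271%) and 2 lower (0.676%). In all, 29 members from 25 NCBI genes passed in at least 1 stage comparison, and 12 passed at both stage 4 and early stage 5 against stage 3, each in the same direction in both, although both comparisons share the stage-3 libraries. The backgrounds were not matched for level. Of the members reaching 1 CPM in a library, 122 of 148 averaged at least 10 CPM, against 6932 of 13511 genes. What level contributed to the shares called was not tested.

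The size of the median change and the balance of higher and lower calls depended on scaling. The median log2 fold change of early stage 5 over stage 3 was 0.34 for members and 0.47 for all genes with TMM, and 0 and 0.10 with library sizes alone, so that 7 members were then higher and 11 lower. With DESeq2's size factors 10 were higher and 9 lower. Of all genes called, 526 of 891 were then higher with TMM, 349 of 913 with library sizes alone and 446 of 903 with DESeq2's size factors. For stage 4 over stage 3 the members were 5 higher and 18 lower with library sizes alone, and 7 higher and 11 lower with those size factors. Of all genes called there, 659 of 1142 were higher with TMM, 396 of 1200 with library sizes alone and 527 of 1137 with those size factors. The 10 most abundant genes took 7.13% to 8.59% of counts at the later stages and 4.28% to 5.32% at stage 3, and their part in this shift was not tested. Leaving out 1 library also moved the number called: 12 members passed between early stage 5 and stage 3 without st5e_c1 or without st5e_p1 and 14 without st5e_c2, and 9 between stage 4 and stage 3 without st4_c1 or without st4_c2. Over all genes the same fits called 559, 585 and 553 at early stage 5, and 752 and 706 at stage 4. Of the 24 members called at early stage 5, 10 passed with any library left out and 8 under every alternative. These 8 were BRD2 *g13141*, histone H3.1 *g12364*, H2B *g17398*, H2A *g17399*, NAP1-like 1 *g13912*, both models of CHD7 (*g5568* and *g13893*) and Mi-2 *g7368*.

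**Figure D1:**
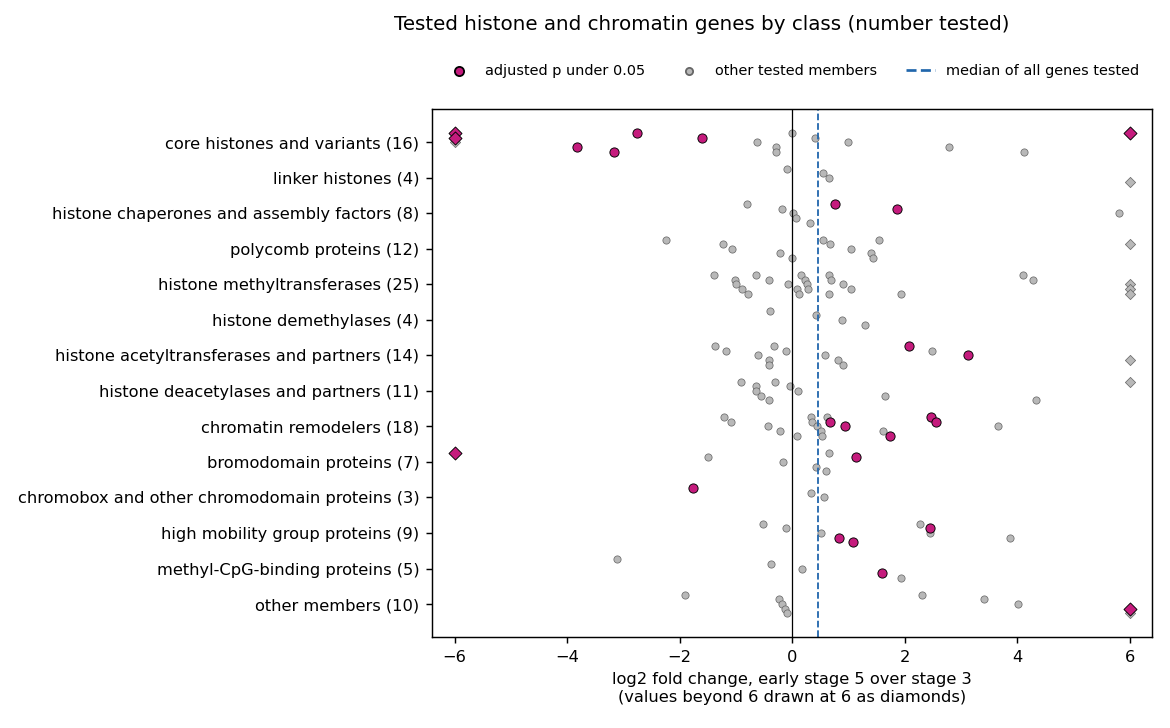
Log2 fold change of early stage 5 over stage 3 for the 146 tested members, 1 point each, grouped by class with the number tested, and values beyond 6 in size drawn at 6 as diamonds. Members with an adjusted p under 0.05 are coloured and the dashed line is the median of all genes tested (0.47); core histones hold 6 of the 8 called members left of 0, while all 5 called remodelers lie right of it.

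Of the 8 members that fell between stage 3 and early stage 5, 6 were core histones. Of 16 core histone models tested, 6 were lower and 1 higher at early stage 5 than at stage 3 (2.74% and 3.95% of all genes). The same numbers came with library sizes alone and with DESeq2's size factors. The median log2 fold change of the 16 models was -0.46, against 0.47 for all genes. Histone H3.1 (*g12364*, on the minus strand of scaffold 1477 of assembly Ptep_1.0, positions 38002 to 38684) had 127 and 165 CPM in c cells, 133, 155 and 246 CPM in i cells and 127, 244 and 385 CPM in p cells at stage 3. At stage 4 *g12364* had 0 and 8.34 CPM in c cells and 1.56 and 0 CPM in p cells. *g12364* had 0 and 0 CPM in c cells and 0 and 0 CPM in p cells at early stage 5. Every stage-3 library, i cells included, lay above every later one. All 4 early stage-5 libraries were at 0. Set against the mean limit of 3 counts per library, this was at least 306-fold lower than the mean of the stage-3 c and p libraries (edgeR adjusted p = 5.01e-07). It was also lower at stage 4 (log2 fold change -6.73, SE 1.08, edgeR adjusted p = 4.11e-08).

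The neighbouring histone H3 gene *g12366* (scaffold 1477, 46842 to 47794, minus strand) had 120.3 and 51.8 CPM in c cells, 250.1, 169.6 and 95.6 CPM in i cells and 167, 97.6 and 162 CPM in p cells at stage 3. At stage 4 *g12366* had 91.4 and 141 CPM in c cells and 12.3 and 81.4 CPM in p cells. *g12366* had 25.8 and 12.9 CPM in c cells and 2.98 and 12.7 CPM in p cells at early stage 5. It overlapped between stages 3 and 4 and was lower in all early stage-5 libraries than in any stage-3 library (log2 fold change -3.17, SE 0.90, edgeR adjusted p = 0.00942). That call was lost when any 1 of 5 libraries was left out (edgeR adjusted p = 0.0685 without st3_c1, 0.0686 without st5e_c1, 0.112 without st5e_c2, 0.132 without st5e_p1, 0.075 without st5e_p2).

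H2B, H2A and H4 genes that lie next to each other on the minus strand of scaffold 2519 fell together, though not at the same time. H2B (*g17398*, 77023 to 77824) had 559 and 280.2 CPM in c cells, 233, 416 and 179 CPM in i cells and 451, 369 and 190.0 CPM in p cells at stage 3. At stage 4 *g17398* had 40.6 and 81.4 CPM in c cells and 89.4 and 50.1 CPM in p cells. *g17398* had 28.9 and 23.2 CPM in c cells and 35.3 and 19.2 CPM in p cells at early stage 5. Its later libraries all lay below its stage-3 libraries, at stage 4 (log2 fold change -2.48, SE 0.48, edgeR adjusted p = 8.96e-06) and at early stage 5 (log2 fold change -3.83, SE 0.61, edgeR adjusted p = 2.38e-08). H2A (*g17399*, 93665 to 94274) had 398 and 394 CPM in c cells, 586, 268 and 374 CPM in i cells and 528, 559.6 and 383 CPM in p cells at stage 3. At stage 4 *g17399* had 230.1 and 451 CPM in c cells and 419 and 221 CPM in p cells. *g17399* had 69.1 and 76.4 CPM in c cells and 44.2 and 70.9 CPM in p cells at early stage 5. It overlapped between stages 3 and 4 (edgeR adjusted p = 0.798) and fell after stage 4 (log2 fold change -2.40, SE 0.49, edgeR adjusted p = 1.96e-04 for early stage 5 over stage 4, and -2.76 with SE 0.47 over stage 3). H4 (*g17400*, 99605 to 100234) had 403 and 321 CPM in c cells, 194, 263 and 249.9 CPM in i cells and 459, 340.5 and 482 CPM in p cells at stage 3. At stage 4 *g17400* had 123 and 280.3 CPM in c cells and 153 and 206 CPM in p cells. *g17400* had 120.5 and 126 CPM in c cells and 117 and 156 CPM in p cells at early stage 5. Its c and p libraries did not overlap between early stage 5 and stage 3 (log2 fold change -1.60, SE 0.43, edgeR adjusted p = 0.00485). The call was lost with 1 library left out in 2 cases (edgeR adjusted p = 0.0602 without st5e_c1, 0.076 without st5e_p1). The NCBI genes of *g17398*, *g17399* and *g17400* are also next to each other in a newer genome assembly.

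Fold limits below set the mean of the c and p libraries of 1 stage against the mean limit of 3 counts at the other stage. Single libraries can lie nearer to that limit. A late-type H2B (*g422*, named late histone H2B.L4-like; scaffold 11, 673332 to 677362) was detected in 7 libraries, all of stage 3, with 20 and 92.3 CPM in c cells, 28.8, 0 and 41 CPM in i cells and 16.5, 18.6 and 89.5 CPM in p cells at stage 3 and 0 in every later library. It was at least 107-fold lower at stage 4 (edgeR adjusted p = 0.00644), a call lost without st3_c2, st4_c1, st4_c2 or st4_p2 (up to 0.0898). Early stage-5 libraries had at least 69.9-fold less of it (edgeR adjusted p = 0.0381). This call held in 3 of 13 fits with 1 library left out, those without st3_c1, st3_p1 or st3_p2, and was otherwise lost (up to 0.279). One H2B gene went the other way. H2B-like *g11670* (scaffold 1355, 152893 to 153954) had 0 counts in all 8 stage-3 libraries, 0 and 7.73 CPM in c cells and 0 and 0 CPM in p cells at stage 4, and 45.7 and 31.4 CPM in c cells and 3.4 and 57.7 CPM in p cells at early stage 5. *g11670* was thus at least 125-fold higher at early stage 5 than at stage 3 (edgeR adjusted p = 0.013), and the call was lost without any 1 of 3 early stage-5 libraries (edgeR adjusted p = 0.18 without st5e_c1, 0.106 without st5e_c2, 1 without st5e_p2).

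**Figure D2:**
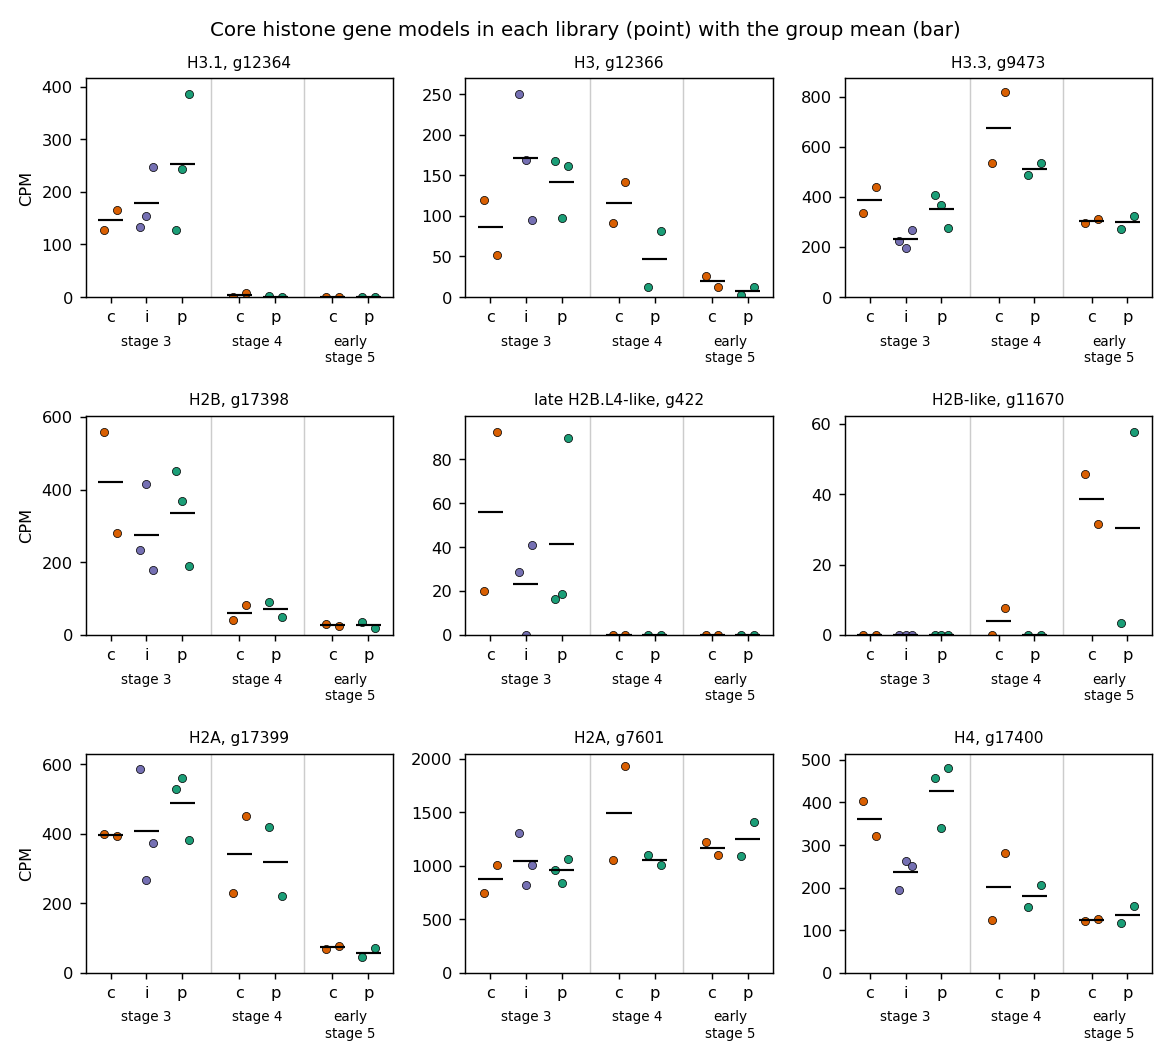
CPM of 9 core histone gene models in each library (points) with the group mean (bars), by stage and region. H3.1, H3, both falling H2B models, H2A *g17399* and H4 end below their stage-3 levels, H2B-like *g11670* is at 0 in all stage-3 libraries, and H3.3 *g9473* and H2A *g7601* stay at 196 CPM or more in every library.

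H3.3, the centromeric H3, the H2A variants and the H2A gene of highest RPKM were not called in any stage comparison. H2A *g7601* had 742 and 1004 CPM in c cells, 1308, 822 and 1006 CPM in i cells and 963, 840.4 and 1064 CPM in p cells at stage 3. At stage 4 *g7601* had 1053 and 1929 CPM in c cells and 1096 and 1002 CPM in p cells. *g7601* had 1222 and 1099 CPM in c cells and 1094 and 1405 CPM in p cells at early stage 5. None of the stage comparisons called this gene. H3.3 *g9473* had 334 and 439.7 CPM in c cells, 225, 196 and 269 CPM in i cells and 406, 369 and 276 CPM in p cells at stage 3. At stage 4 *g9473* had 533 and 818 CPM in c cells and 489 and 535 CPM in p cells. *g9473* had 295 and 310.3 CPM in c cells and 272 and 325 CPM in p cells at early stage 5. It stood higher at stage 4 than in any stage-3 library, by unadjusted p = 0.0232 (edgeR adjusted p = 0.167). At early stage 5 all its libraries lay below those of stage 4 (log2 fold change -1.02, SE 0.36, unadjusted p = 0.0049, edgeR adjusted p = 0.274). The second H3.3 gene *g1955* ranged from 247 to 793 CPM over the 16 libraries. Of the summed RPKM of the H3.1, H3 and H3.3 genes, H3.1 and H3 made up 28.9% to 60.0% in the 8 stage-3 libraries, 1.54% to 11.7% in the 4 of stage 4 and 0.688% to 5.11% in the 4 of early stage 5. So the polyadenylated H3 messages were mostly of H3.3 in every library of both later stages, and at stage 3 in some libraries but not in all. H3.3 itself was not called in any direction. The centromeric H3 variant (cid), which marks the site of the kinetochore, was counted mainly on *g13949*, with 217 and 179 CPM in c cells, 122, 112 and 136 CPM in i cells and 133, 144 and 299 CPM in p cells at stage 3. At stage 4 *g13949* had 25.3 and 72 CPM in c cells and 137 and 101 CPM in p cells. *g13949* had 178 and 83.6 CPM in c cells and 151 and 94.2 CPM in p cells at early stage 5. The variant was not called. H2A.V (*g18563*) stayed at 0 to 38.1 CPM, and macro-H2A.1 (*g2043*) had counts in 2 libraries, at most 7.86 CPM. Of 4 linker histone genes none was called, and the best-counted, H1E (*g16306*), was at 53.4 to 234 CPM.

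The catalytic subunit of type B histone acetyltransferase (*g679*), known for acetylating new H4 in the cytoplasm, had 358 and 214 CPM in c cells, 201, 114 and 336 CPM in i cells and 251, 281 and 250.2 CPM in p cells at stage 3. At stage 4 *g679* had 42.4 and 107 CPM in c cells and 73.3 and 101 CPM in p cells. *g679* had 129 and 115 CPM in c cells and 97.4 and 139 CPM in p cells at early stage 5. All its stage-4 libraries lay below the c and p libraries of stage 3 (log2 fold change -1.68, SE 0.46, edgeR adjusted p = 0.0058), a call lost without st4_c1 (edgeR adjusted p = 0.0613). At early stage 5 it still lay below them but was not called (edgeR adjusted p = 0.137). CAF-1 subunit A (*g8117*), part of the complex that places H3 and H4 on replicating DNA, ranged over 147 to 240.3 CPM at stage 4 and 289 to 587 CPM in c and p cells at stage 3, without overlap (log2 fold change -1.10, SE 0.38, edgeR adjusted p = 0.0494). This call was close to the threshold and held in 3 of 13 fits with 1 library left out, those without st3_c1, st3_p3 or st5e_c2 (up to 0.265 in the others). The histone RNA hairpin-binding protein (*g19353*), which binds the stem-loop of canonical histone mRNAs, ranged over 6.47 to 56 CPM at early stage 5 and 20.4 to 141 CPM at stage 3, with unadjusted p = 0.0202 and edgeR adjusted p = 0.201 for early stage 5 over stage 3. Its level was chosen for mention after the values had been seen.

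Among 8 chaperone models 2 rose at early stage 5 over stage 3 and none fell (3.95% and 2.74% of all genes). With DESeq2's size factors 1 rose, and with library sizes alone 1 rose and 1 fell. NAP1-like 1 (*g13912*), a chaperone of H2A and H2B, had 942 and 1402 CPM in c cells, 699.7, 1484 and 843 CPM in i cells and 1403, 1069.7 and 654 CPM in p cells at stage 3. At stage 4 *g13912* had 2291 and 3144 CPM in c cells and 3712 and 3157 CPM in p cells. *g13912* had 3965 and 3259 CPM in c cells and 4226 and 4763 CPM in p cells at early stage 5. Every later library lay above every stage-3 library, at stage 4 (log2 fold change 1.52, SE 0.20, edgeR adjusted p = 5.06e-12) and at early stage 5 (log2 fold change 1.87, SE 0.20, edgeR adjusted p = 5.59e-18). CHZ1 (*g15449*), named after the yeast chaperone of H2A.Z, ranged over 1066 to 2557 CPM at early stage 5 and 715 to 1274 CPM in c and p cells at stage 3 and overlapped (log2 fold change 0.77, SE 0.23, edgeR adjusted p = 0.0185). Its call was lost without any of 5 libraries (edgeR adjusted p = 0.329 without st3_c1, 0.105 without st4_c1, 0.113 without st4_c2, 0.829 without st5e_c1, 0.617 without st5e_p2). The histone-binding proteins RBBP7 (*g21325*, 173 to 362 CPM) and RBBP4 (*g25210*, 100.3 to 298 CPM), shared subunits of many chromatin complexes, were not called.

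Of 18 remodeler models 5 were higher at early stage 5 than at stage 3 and none was lower (3.95% and 2.74% of all genes). These 5 are 2 models of CHD7, 2 of Mi-2 and 1 of BPTF, so they stand for fewer NCBI genes. The numbers higher were 4 with DESeq2's size factors and 3 with library sizes alone, again with none lower. At stage 4, 4 were higher and none lower (4.95% and 3.63% of all genes), and under either of these scalings 3 were higher and 1 lower. The 2 models of CHD7, a chromodomain helicase known as Kismet in the fly, belong to 1 NCBI gene and moved alike. *g5568* had 169 and 159 CPM in c cells, 218, 426 and 245 CPM in i cells and 380.1, 241 and 124 CPM in p cells at stage 3. At stage 4 *g5568* had 737 and 505 CPM in c cells and 986 and 1086 CPM in p cells. *g5568* had 986 and 1181 CPM in c cells and 1588 and 1027 CPM in p cells at early stage 5. Its later libraries did not overlap with stage 3. *g13893* had 189 and 131 CPM in c cells, 185, 443 and 542 CPM in i cells and 484, 169 and 199.7 CPM in p cells at stage 3. At stage 4 *g13893* had 682 and 888 CPM in c cells and 1314 and 1142 CPM in p cells. *g13893* had 962 and 1126 CPM in c cells and 1634 and 1029 CPM in p cells at early stage 5. Both were higher in each later library than in any stage-3 library, with log2 fold changes at early stage 5 of 2.56 (SE 0.30, edgeR adjusted p = 3.39e-15) and 2.46 (SE 0.29, edgeR adjusted p = 1.11e-14). At stage 4 they were 2.04 and 2.25 (edgeR adjusted p = 9.20e-10 and 2.00e-12).

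Mi-2, the ATPase of the NuRD complex, is likewise split into 2 models. *g7368* had 315 and 529 CPM in c cells, 680.2, 491 and 366 CPM in i cells and 954, 433 and 571 CPM in p cells at stage 3. At stage 4 *g7368* had 1247 and 1817 CPM in c cells and 1169.8 and 1113 CPM in p cells. *g7368* had 1623 and 1641 CPM in c cells and 1735 and 2002 CPM in p cells at early stage 5. Its later libraries all exceeded those of stage 3 (log2 fold change 1.39, SE 0.25, edgeR adjusted p = 1.86e-06 at stage 4, and log2 fold change 1.73, SE 0.25, edgeR adjusted p = 6.20e-10 at early stage 5). *g7367*, with more counts, had 2336 and 1983 CPM in c cells, 2108, 2493 and 2147 CPM in i cells and 2781, 2095 and 2047 CPM in p cells at stage 3. At stage 4 *g7367* had 3088 and 3289 CPM in c cells and 4372 and 2252 CPM in p cells. *g7367* had 3424 and 3716 CPM in c cells and 4210.4 and 2960.1 CPM in p cells at early stage 5. Its log2 fold change was smaller, without overlap at early stage 5 (log2 fold change 0.68, SE 0.19, edgeR adjusted p = 0.00852) and with overlap at stage 4 (log2 fold change 0.61, SE 0.19, edgeR adjusted p = 0.0213). The early stage-5 call was lost in 3 fits with 1 library left out (edgeR adjusted p = 0.104 without st3_c2, 0.0884 without st5e_c2, 0.231 without st5e_p1). Its stage-4 call was lost without any of 7 libraries, st3_c1, st3_c2, st3_p2, st4_c1, st4_c2, st4_p1 and st5e_c2 (up to 0.61).

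BPTF (*g26197*), the largest subunit of the NURF remodeler, ranged over 589.7 to 1302 CPM at early stage 5 and 322 to 846 CPM in c and p cells at stage 3, with overlap (log2 fold change 0.94, SE 0.29, edgeR adjusted p = 0.0228). The call held in 5 of 13 fits with 1 library left out, those without st3_p1, st4_p1, st4_p2, st5e_c2 or st5e_p2, and was lost in the rest (up to 0.442). The 2 well-counted ISWI models (*g12178* at 98.1 to 432 CPM and *g18556* at 215 to 663 CPM), SMARCC2 of the SWI/SNF complex (*g404*, 979 to 1951 CPM) and BAZ1A, an ISWI partner (*g6843*, 661 to 1214 CPM), were not called between stages.

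Of 9 high mobility group models tested 3 were higher at early stage 5 than at stage 3 and none was lower (3.95% and 2.74% of all genes). With DESeq2's size factors or with library sizes alone 1 was higher. HMGB2 (*g7722*) had 2753 and 2787 CPM in c cells, 2272, 2605 and 2118 CPM in i cells and 2593, 2679 and 2454 CPM in p cells at stage 3. At stage 4 *g7722* had 4218 and 5569.8 CPM in c cells and 5817 and 3797 CPM in p cells. *g7722* had 5077 and 4559 CPM in c cells and 6964 and 6078 CPM in p cells at early stage 5. Its later libraries all lay above those of stage 3 (log2 fold change 0.93, SE 0.17, edgeR adjusted p = 5.18e-06 at stage 4, and log2 fold change 1.07, SE 0.17, edgeR adjusted p = 5.32e-08 at early stage 5). HMG-I/HMG-Y-like (*g16167*) had 545 and 1005 CPM in c cells, 421, 397 and 439 CPM in i cells and 744, 816 and 828 CPM in p cells at stage 3. At stage 4 *g16167* had 419 and 751 CPM in c cells and 677 and 495 CPM in p cells. *g16167* had 1263 and 1156 CPM in c cells and 1637 and 1545 CPM in p cells at early stage 5. It was not called at stage 4 over stage 3 and rose after stage 4 (log2 fold change 1.19, SE 0.28, edgeR adjusted p = 0.00488 over stage 4, and log2 fold change 0.82, SE 0.26, edgeR adjusted p = 0.031 over stage 3). Against stage 4 the call was lost without st4_c1, st4_p2, st5e_c1 or st5e_p1 (up to 0.194), and against stage 3 without st3_c1 or any 1 early stage-5 library (up to 0.257). The HMG protein homolog TDP-1 (*g11031*) was called at early stage 5 (log2 fold change 2.44, SE 0.82, edgeR adjusted p = 0.0461), overlapped between the stages, and kept its call in 3 of 13 fits with 1 library left out, those without st3_c2, st3_p1 or st3_p2 (up to 0.82 in the others).

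Methyl-CpG-binding proteins recognize methylated DNA in vertebrates. Of 5 models 1 rose, where 4.95% of all genes were higher at stage 4 and 3.95% at early stage 5. MBD2-like *g24200* had 185 and 44.8 CPM in c cells, 68.5, 112 and 85.6 CPM in i cells and 173, 57.6 and 80.3 CPM in p cells at stage 3. At stage 4 *g24200* had 238 and 299.8 CPM in c cells and 381 and 296 CPM in p cells. *g24200* had 330.5 and 327 CPM in c cells and 421 and 256 CPM in p cells at early stage 5. The gene rose without overlap between stage 3 and either later stage (log2 fold change 1.50, SE 0.40, edgeR adjusted p = 0.00354 at stage 4, and log2 fold change 1.59, SE 0.41, edgeR adjusted p = 0.00276 at early stage 5). The stage-4 call was lost with either of 2 libraries left out (edgeR adjusted p = 0.0941 without st3_c2, 0.0681 without st4_c2). The early stage-5 call was lost likewise (edgeR adjusted p = 0.0885 without st3_c2, 0.0888 without st5e_p1). The other MBD2-like models *g12772* and *g7512* ranged over 0 to 92.1 and 0 to 43.1 CPM and MBD4-like *g10911* over 0 to 31.6 CPM, and none of them was called between stages.

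**Figure D3:**
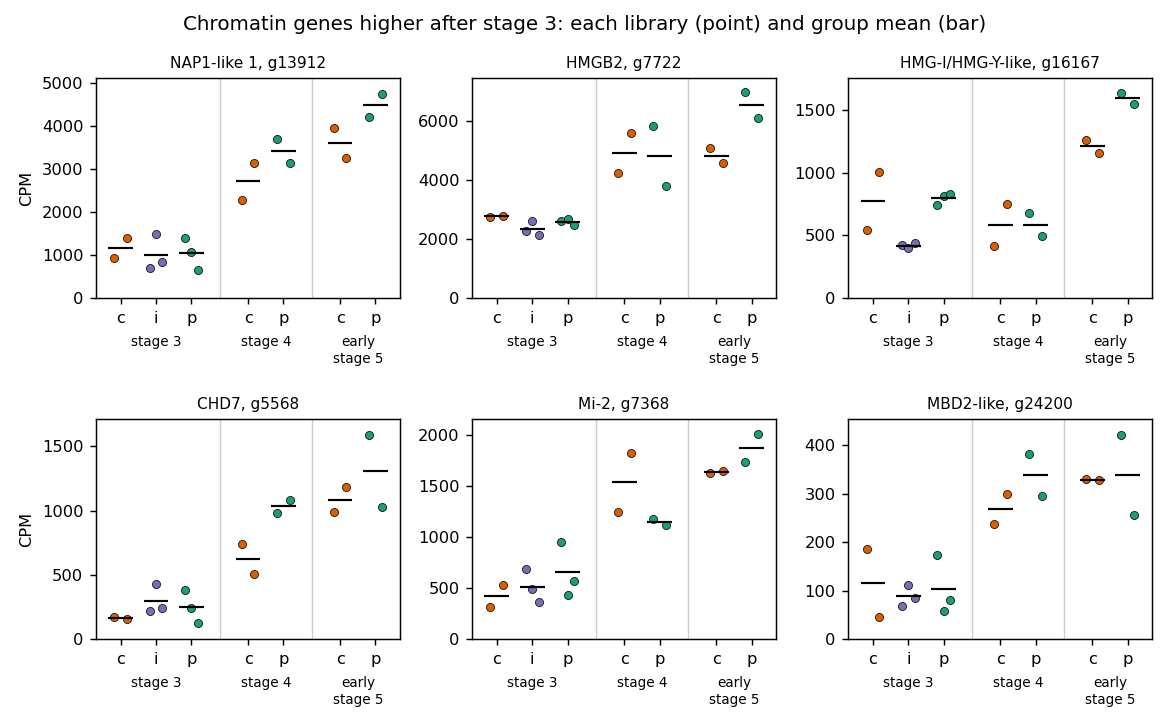
CPM of 6 members in each library (points) with the group mean (bars), by stage and region. NAP1-like 1, HMGB2, CHD7, Mi-2 *g7368* and MBD2-like are higher in every stage-4 and early stage-5 library than in any stage-3 library, and HMG-I/HMG-Y-like is higher only at early stage 5.

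Of 7 bromodomain models tested 1 fell and 1 rose between stage 3 and early stage 5 (2.74% and 3.95% of all genes). With library sizes alone the second was not called. BRD2 *g13141* (scaffold 1598, 67905 to 93674, minus strand), of a family that binds acetylated histones and aids transcription, had 611 and 678 CPM in c cells, 858, 468 and 826 CPM in i cells and 256, 509 and 735 CPM in p cells at stage 3. At stage 4 *g13141* had 264 and 233 CPM in c cells and 279 and 51 CPM in p cells. *g13141* had 3.1 and 0 CPM in c cells and 10.2 and 0 CPM in p cells at early stage 5. All stage-3 libraries lay above all early stage-5 libraries, and stage 4 lay between with some overlap with stage 3. It fell by 7.71 on the log2 scale at early stage 5 (SE 0.82, edgeR adjusted p = 1.11e-18), and by 6.26 at early stage 5 over stage 4 (SE 0.97, edgeR adjusted p = 4.38e-08). At stage 4 the call (log2 fold change -1.45, SE 0.38, edgeR adjusted p = 0.00291) was lost in 3 fits (edgeR adjusted p = 0.0581 without st4_c1, 0.0889 without st4_c2, 0.142 without st4_p2). A second BRD2 model, *g7899*, of another NCBI gene, had 196 and 192 CPM in c cells, 209.7, 259 and 165 CPM in i cells and 462, 229 and 98.3 CPM in p cells at stage 3. At stage 4 *g7899* had 196 and 355 CPM in c cells and 400.3 and 293 CPM in p cells. *g7899* had 374 and 301 CPM in c cells and 381 and 372 CPM in p cells at early stage 5. This model was not called, nor were BRD3 *g16069* (134 to 571 CPM) and BRD7-like *g27297* (115 to 477 CPM). BRD3 *g13142*, the next model on scaffold 1598 (99546 to 118140), ranged from 0.426 to 269.8 CPM at stage 3, 0.173 to 72.3 CPM at stage 4 and 19.2 to 73.4 CPM at early stage 5 and was not called. BRWD3 *g2808*, a bromodomain and WD-repeat protein, had 310.2 and 277 CPM in c cells, 204, 308 and 333 CPM in i cells and 244, 231 and 382 CPM in p cells at stage 3. At stage 4 *g2808* had 412 and 585 CPM in c cells and 737 and 814 CPM in p cells. *g2808* had 614 and 597 CPM in c cells and 787 and 556 CPM in p cells at early stage 5. No later library overlapped with stage 3 (log2 fold change 1.16, SE 0.31, edgeR adjusted p = 0.00477 at stage 4, and log2 fold change 1.14, SE 0.32, edgeR adjusted p = 0.00816 at early stage 5). Its calls were lost without st4_c2 at stage 4 (edgeR adjusted p = 0.0546) and in 3 fits at early stage 5 (edgeR adjusted p = 0.064 without st5e_c1, 0.0577 without st5e_c2, 0.129 without st5e_p1).

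The 2 best-counted chromobox genes took different courses. CBX2 (*g5646*), whose vertebrate namesake is a polycomb subunit, had 546 and 690.0 CPM in c cells, 299, 499.6 and 531 CPM in i cells and 753, 386 and 708 CPM in p cells at stage 3. At stage 4 *g5646* had 245 and 299 CPM in c cells and 594 and 249 CPM in p cells. *g5646* had 195 and 255 CPM in c cells and 169 and 127 CPM in p cells at early stage 5. At early stage 5 all libraries lay below all stage-3 libraries (log2 fold change -1.76, SE 0.37, edgeR adjusted p = 8.56e-05). CBX3-like (*g18803*) had 1253 and 2348 CPM in c cells, 1648, 1244 and 1475 CPM in i cells and 1561, 1621 and 1465 CPM in p cells at stage 3. At stage 4 *g18803* had 403 and 1358 CPM in c cells and 1014 and 1188 CPM in p cells. *g18803* had 2353 and 2242 CPM in c cells and 2509 and 2735 CPM in p cells at early stage 5. It was lower at stage 4 than at stage 3, with overlap (log2 fold change -0.71, SE 0.23, edgeR adjusted p = 0.026), and higher at early stage 5 than at stage 4 without overlap (log2 fold change 1.26, SE 0.24, edgeR adjusted p = 3.49e-05). The first of these calls was lost without st3_c2, st4_c1, st4_p1, st4_p2, st5e_p1 or st5e_p2 (up to 0.476) and the second without st4_c1 (edgeR adjusted p = 0.0764), the library with the lowest level.

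**Figure D4:**
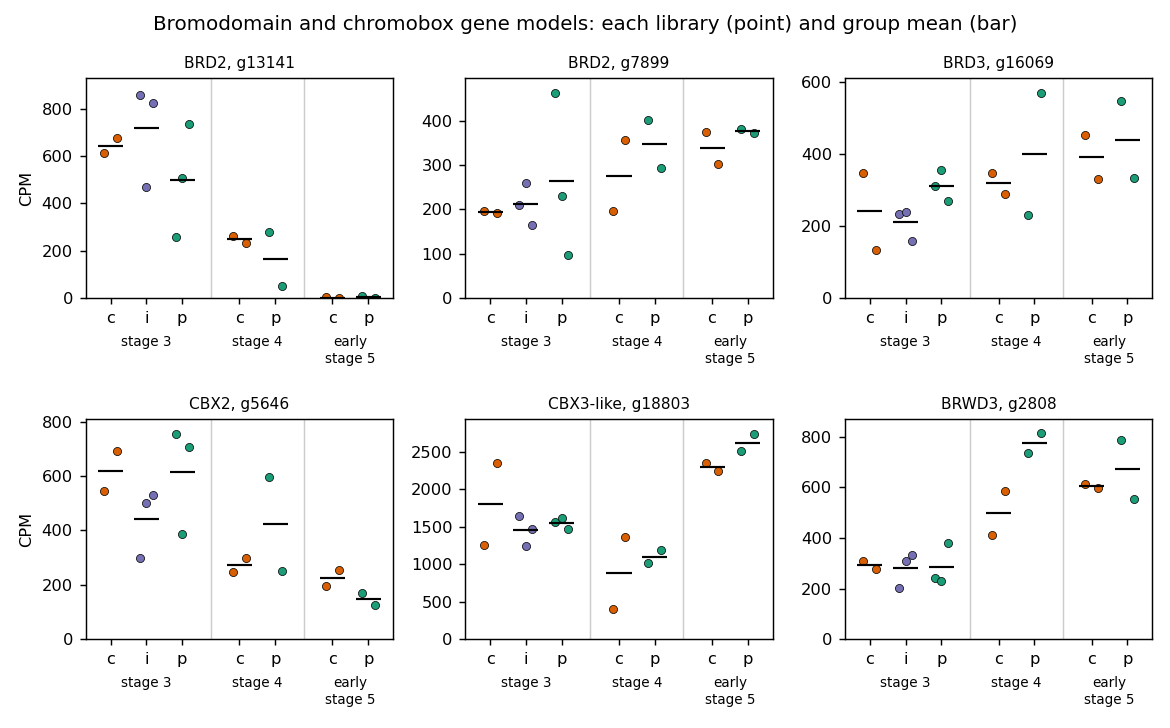
CPM of 6 bromodomain and chromobox models in each library (points) with the group mean (bars), by stage and region. BRD2 *g13141* drops to at most 10.2 CPM at early stage 5 while BRD2 *g7899* and BRD3 *g16069* stay at 98.3 CPM or more in every library, and CBX3-like dips at stage 4.

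Of 14 acetyltransferase and partner models 2 were higher at early stage 5 than at stage 3 (14.3%, beside 3.95% of all genes higher). At stage 4, 1 was lower than at stage 3 (7.14%, beside 3.63% of all genes lower). At early stage 5, 1 was higher and 1 lower with DESeq2's size factors, and none was higher and 1 lower with library sizes alone. The 2 called with TMM are models of enhancer of polycomb, a subunit of the NuA4 acetyltransferase complex, and share an NCBI gene with *g22195*. *g21331* had 7.06 and 0 CPM in c cells, 13.9, 0.433 and 14.1 CPM in i cells and 32.4, 0.0982 and 39 CPM in p cells at stage 3. At stage 4 *g21331* had 105 and 24.4 CPM in c cells and 45.3 and 47.4 CPM in p cells. *g21331* had 76.1 and 67.8 CPM in c cells and 130.3 and 73.8 CPM in p cells at early stage 5. Early stage 5 and stage 3 did not overlap (log2 fold change 3.12, SE 0.92, edgeR adjusted p = 0.0136). The call was lost with any of 4 libraries left out (edgeR adjusted p = 0.0791 without st3_c2, 0.161 without st5e_c1, 0.155 without st5e_c2, 0.168 without st5e_p1). *g14060* overlapped (log2 fold change 2.07, SE 0.67, edgeR adjusted p = 0.0324), and its call held in 3 of 13 fits, those without st3_c1, st3_p1 or st3_p2 (up to 0.321 in the others). The coactivator p300 (*g27381*) ranged over 200.3 to 601 CPM and DMAP1 (*g25185*) over 79.5 to 183 CPM, without a call. Of 11 deacetylase models tested, HDAC2 (*g13842*) ranged over 397 to 1155 CPM, the corepressor subunits SAP18-like (*g14526*) over 14.1 to 264 CPM and SDS3-like (*g7545*) over 19.5 to 196 CPM, and none was called at early stage 5. At stage 4 the 2 models of 1 HDAC4 gene were called higher than at stage 3 (18.2% of the deacetylases, beside 4.95% of all genes higher). Neither with DESeq2's size factors nor with library sizes alone was a deacetylase called higher. *g16208* was at 0 in all 8 stage-3 libraries and had 26.1 and 14 CPM in c cells and 0.173 and 34.3 CPM in p cells at stage 4. By its stage-4 mean, set against the limit of 3 counts, it was at least 67.5-fold higher (edgeR adjusted p = 0.047), although st4_p1 did not exceed that limit. *g21107* had 54.8 and 43.6 CPM in c cells and 0.519 and 74.3 CPM in p cells at stage 4, against 0.172 and 60 CPM in c cells, 35.7, 0 and 0 CPM in i cells and 0, 0 and 0 CPM in p cells at stage 3 (edgeR adjusted p = 0.0375). Each call held in few fits with 1 library left out, 4 of 13 for *g16208* (without st3_p1, st3_p2, st3_p3 or st4_p1) and 3 of 13 for *g21107* (without st3_c2, st3_p3 or st4_p1), with edgeR adjusted p up to 1 in the others.

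No member classed by its product name as a polycomb protein, histone methyltransferase or histone demethylase passed in any stage comparison. CBX2, called lower at early stage 5, was counted with the chromobox proteins. Lysine-specific demethylases whose names the rule does not catch were counted only in the list of other chromatin genes below. Of the core of PRC2, which methylates lysine 27 of H3, SUZ12 (*g7616*) had 33.1 and 37 CPM in c cells, 23.3, 49 and 42.4 CPM in i cells and 40, 0 and 52.6 CPM in p cells at stage 3. At stage 4 *g7616* had 29 and 24 CPM in c cells and 25.2 and 46.6 CPM in p cells. *g7616* had 102 and 82.7 CPM in c cells and 116 and 60.7 CPM in p cells at early stage 5. Early stage 5 lay above all stage-3 libraries without a call (unadjusted p = 0.0402, edgeR adjusted p = 0.312). The catalytic subunit E(z) (*g25790*) ranged over 77.7 to 171 CPM at early stage 5 and 22 to 96.8 CPM in c and p cells at stage 3, and EED (*g10698*) over 53.9 to 111 and 0 to 128 CPM. The 12 tested polycomb models had a median log2 fold change of 0.61 and the 25 methyltransferases one of 0.26, against 0.47 for all genes. The polycomb protein Pc-like (*g15477*), a reader of methylated lysine 27, ranged over 0 to 79.8 CPM in the 16 libraries. With library sizes alone, 1 methyltransferase was lower at stage 4 and 1 at early stage 5. The methyltransferases of highest RPKM were SETDB1 (*g4240*, 126 to 728 CPM over the 16 libraries), which methylates lysine 9 of H3, trithorax-like *g2379* (74.6 to 366 CPM), which acts on lysine 4, and SETD2 *g8161* (147 to 598 CPM), which acts on lysine 36. LSD1 (*g1520*), PHF8 (*g24966*) and UTY (*g260*), the highest demethylases, ranged over 0 to 213, 0.0851 to 320.5 and 14 to 174 CPM. A model named after the yeast protein ESC1 (*g5674*) was called at early stage 5 (edgeR adjusted p = 0.039) with 0 and 44.3 CPM in c cells and 179 and 3.27 CPM in p cells at early stage 5, where 9.3 and 0 CPM were found in c cells and 0 in p cells at stage 3. It overlapped, and the call held in 4 of 13 fits with 1 library left out, those without st3_c1, st3_p1, st3_p2 or st3_p3 (up to 1 in the others). The other chromatin-named models of high RPKM, chromatin target of PRMT1 (*g8397*, 283 to 702 CPM), the acinus-like *g4212* (557 to 1665 CPM) and an ANTAGONIST OF LIKE HETEROCHROMATIN-like model (*g5343*, 63.7 to 245 CPM), were not called.

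Summed over each class, as a description without a test, core histones averaged 2248 ± 238 CPM at early stage 5 (SD, n = 4) and 3496 ± 195 CPM at stage 3 (n = 5), and the library ranges did not overlap. High mobility group proteins averaged 7337 ± 1316 CPM at early stage 5 (SD, n = 4) and 3575 ± 237 CPM at stage 3 (n = 5), also without overlap. Histone chaperones averaged 6805 ± 1305 CPM at early stage 5 (SD, n = 4) and 3252 ± 563 CPM at stage 3 (n = 5) and remodelers 13517 ± 1652 CPM at early stage 5 (SD, n = 4) and 7766 ± 1389 CPM at stage 3 (n = 5), likewise apart. These 4 directions held with library sizes alone. Without NAP1-like 1 the log2 ratio of the chaperone sums was 0.35 in place of 1.07. Methyl-CpG-binding proteins were higher without overlap as well, but by a log2 ratio of 0.04 with library sizes alone, against 0.42 with TMM. The sums of polycomb proteins, methyltransferases, demethylases, acetyltransferases, deacetylases, bromodomain, chromobox and linker histone genes overlapped between the stages, and with library sizes alone those of methyltransferases and chromobox proteins turned to the lower side. Over all members the sum was 43539.7 ± 4315 CPM at early stage 5 (SD, n = 4) and 30798 ± 2148 CPM at stage 3 (n = 5), and in bulk pools such a sum cannot tell more cells of a kind from more RNA per cell.

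The i cells of stage 3, which come from another mother and were not in the stage fits, were set beside the early stage-5 libraries for the 24 called members. For 13 of the 16 higher members every early stage-5 library lay above every i library (13.7% of all genes tested), and for 7 of the 8 lower members every early stage-5 library lay below (6.19% of all genes). The exceptions were *g14060*, *g26197*, *g5674* and *g422*. The early stage-5 libraries are the same ones that gave the calls, so that this compares a second stage-3 mother with a single mother of early stage 5. The shares of all genes include genes without a call. The share among called genes was not computed, so the members cannot be read against it. A list of 57 other chromatin genes whose names the rule does not catch, such as condensins, cohesins, INO80 subunits and sirtuins, had 4 of 56 tested called at stage 4 and 4 at early stage 5 against stage 3 (7.14% each, beside backgrounds of 8.58% and 6.7%), and 1 between the later stages.

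Between regions of the disc no member passed at any stage. At stage 3, c cells were compared with i and p cells (comparison I), p cells with c and i cells (II) and i cells with c and p cells (III), over 137 members tested each, where 0.396%, 0.101% and 0.184% of all 10860 genes were called by edgeR. Members with an unadjusted p under 0.05 numbered 5, 6 and 8, beside 5.28%, 5.41% and 4.93% of all genes. DESeq2's Wald test called 3, 3 and 4 members, and it called far more of all genes (559, 526 and 676). With the libraries of each comparison scaled among themselves, groups did not overlap for 3 members higher and 1 lower in comparison I (5.5% and 1.09% of all genes), 1 higher and 1 lower in II (1.44% and 1.1%) and 3 higher and 3 lower in III (1.4% and 2.15%). In comparison I these were the acinus-like model *g4211* (31.2 and 42.2 CPM in c cells, 0, 0 and 19.6 CPM in i cells and 0.265, 0 and 0 CPM in p cells), the arginine methyltransferase CARMER-like *g4283* (182 and 186 CPM in c cells, at most 155 CPM elsewhere) and HMGB2, all higher in c cells, and BAZ1A *g6843*, lower in c cells. In comparison II H1E *g16306* was higher in p cells (173, 201 and 234 CPM) than in c cells (85.3 and 114 CPM) and i cells (69.1, 53.4 and 89.8 CPM; unadjusted p = 0.013), and BAZ2B *g4504* was lower (70.1, 27.9 and 68.8 CPM in p cells, 94.3 to 221 CPM elsewhere; unadjusted p = 0.0109).

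In comparison III, HMG-I/HMG-Y-like *g16167* had the lowest p, with 421, 397 and 439 CPM in i cells, 545 and 1005 CPM in c cells and 744, 816 and 828 CPM in p cells (log2 fold change -0.89, SE 0.30, edgeR adjusted p = 0.461). H4 *g17400* and RBBP7 *g21325* were also lower in i cells without overlap, and the H3.v1-like model *g16576* (10.5, 27.8 and 60.7 CPM in i cells, 0 elsewhere), the demethylase LSD2-like *g1100* and SUV39H2-like *g9122* were higher. None of them was called, and each of these values also separates the mother of the i cells from the mother of the others.

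Direct comparison of c with p cells called 0 of 131 members at stage 3, 0 of 134 at stage 4 and 0 of 141 at early stage 5, where edgeR called 0.245%, 0.486% and 0.812% of all genes. Members with an unadjusted p under 0.05 numbered 2, 6 and 6 (3.57%, 4.42% and 8.2% of all genes). DESeq2's Wald test called 4, 1 and 2 members, and 872 of 10202, 276 of 10074 and 404 of 11825 genes. The median log2 fold change of members was -0.05, -0.32 and -0.20 at the 3 stages, against 0.06, 0.07 and 0.18 for all genes. At stage 3, 8 members were higher and 4 lower in c cells without overlap (11.3% and 4.92% of all genes), among them BAZ2B and HDAC6-like *g8459* higher, and H1E, E(z), MEAF6-like *g26659* and BAZ1A lower. The acinus-like *g4211* was at or under the limit of 3 counts in each p library and above it in both c libraries (unadjusted p = 0.04).

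At stage 4, 14 members were higher and 32 lower in c cells without overlap (15.2% and 13.3% of all genes). The lowest p belonged to the demethylase PHF8 (*g24966*), with 24.3 and 95.6 CPM in c cells and 320.5 and 192 CPM in p cells (unadjusted p = 0.00694, edgeR adjusted p = 0.46). ASH2-like *g20838* (0.445 and 69.6 CPM in c cells, 301 and 71.7 CPM in p cells) and SETD1B *g11045* (49.6 and 108 CPM in c cells, 321 and 198 CPM in p cells), both of complexes that methylate lysine 4 of H3, and the acinus-like *g4212* (713 and 893 CPM in c cells, 1665 and 1436 CPM in p cells) lay on the same side. None was called. ASF1-like *g22346*, enhancer of polycomb *g22195*, KAT6B *g1713*, SMYD3 *g26567* and SETMAR-like *g8167* were higher in c cells, again by values alone.

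At early stage 5, 17 members were higher and 30 lower in c cells without overlap (22.3% and 12.8% of all genes). HMGB2 (*g7722*) came nearest to the threshold, with 5077 and 4559 CPM in c cells and 6964 and 6078 CPM in p cells (log2 fold change -0.48, SE 0.13, edgeR adjusted p = 0.182). HMG-I/HMG-Y-like *g16167* (1263 and 1156 CPM in c cells, 1637 and 1545 CPM in p cells), NAP1-like 1 *g13912* (3965 and 3259 CPM in c cells, 4226 and 4763 CPM in p cells), E(z) *g25790* (77.7 and 80 CPM in c cells, 129 and 171 CPM in p cells) and ISWI *g18556* were also lower in c cells. SETD2 *g8161* (at least 411 CPM in c cells, 259 and 233 CPM in p cells), the H3 lysine-79 methyltransferase *g26245*, HDAC6-like *g8459*, CBX2 *g5646* and MBD4-like *g10911* (7.48 and 21.3 CPM in c cells, 0 and 0.192 CPM in p cells) were higher. Of the 5 that were lower, HMGB2, HMG-I/HMG-Y-like and NAP1-like 1 are also among the members that rose with stage. Whether the c over p difference itself changed with stage was tested over the 13 libraries. There edgeR called 0 of 146 members (background 0.0827%), with 2 members at an unadjusted p under 0.05 (2.62% of all genes). DESeq2's likelihood ratio test called 1 member, and 101 of 13306 genes.

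**Figure D5:**
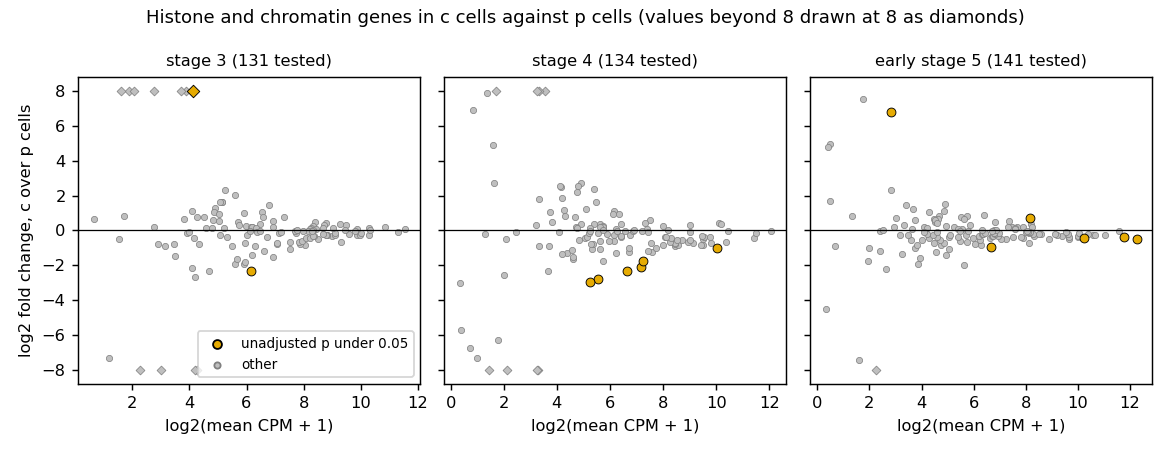
Log2 fold change of c over p cells against mean level, log2(mean CPM + 1), for the members tested at stage 3, stage 4 and early stage 5, 1 point each. The 2, 6 and 6 members with an unadjusted p under 0.05 are coloured, none passed adjustment, and the scatter widens towards low levels.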

How the data were processed

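RNA-seq of hand-drawn cell pools from wild-type spider embryos was analysed over all 16 libraries, grouped by the stage and region in the labels. The authors amplified poly(A) RNA, sequenced single-end reads, aligned them to Ptep_1.0, kept unique alignments and counted them on AUGUSTUS gene models with HTSeq (version 0.5.4p5 per the submitters' processing notes), and they deposited raw counts and RPKM per gene model. Near-identical histone copies can lose reads in the uniqueness filter. Rows that name no gene were filled for early stage 5 alone and were left out. Nothing in the labels says that libraries of 1 group came from separate embryos, so p-values measure the spread between these libraries, which may be technical.

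Counts were tested with edgeR 4.0.16 (R 4.3.3) by the quasi-likelihood test on TMM-scaled counts. Gene models reaching 1 CPM in 1 or more of the fitted libraries entered, and p-values were adjusted after Benjamini and Hochberg over the whole fit, with a threshold of 0.05. The SE of a log2 fold change is its size divided by the square root of F. Groups were called apart when their CPM did not overlap. RPKM values were used as deposited, for levels between genes only. Products and NCBI genes came from the annotation in the count tables, and their names are automatic. Alternatives were DESeq2 1.42.0, edgeR's likelihood ratio test, scaling by DESeq2's size factors or by library sizes alone, fits without a filter or with 10 or more counts in 2 or more libraries, the replicate number as a block, c or p cells alone, i, c and p as separate groups, each library left out, and, added after seeing the data, the older form of the quasi-likelihood test. The fitting script was tested on simulated data.

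Genes named are the members called in each comparison, up to 5 per direction with the lowest p among those whose groups did not overlap, the 3 members of highest mean RPKM in each class, the H2A and centromeric H3 variants, and the DNA methyltransferase and methyl-CpG products. Some results of such genes are not reported here. Others were named after their values were seen. The members and lists were chosen with earlier results of these data known. No sequences are shown, as no genome or sequence table was used here.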

Additional observations from a re-analysis of the deposited data

How the results depend on the processing

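No called member changed sign under an alternative in the comparison that called it. Members named for groups apart without a call were followed for their side of the threshold alone, not for sign. Other members without a call were not followed, and some class medians changed sign with the scaling. Of the values followed, 1453 kept their side of the threshold, 269 lost a call and 10 gained one. With DESeq2's Wald test 3, 3 and 4 members were called in comparisons I, II and III, 4, 1 and 2 between c and p cells at stage 3, stage 4 and early stage 5, and 11 between early stage 5 and stage 4, and its likelihood ratio test called 1 for the change of the c over p difference with stage, against 0, 0, 0, 0, 0, 0, 4 and 0 by edgeR. Over all genes these DESeq2 tests called, in the same order, 559, 526, 676, 872, 276, 404, 416 and 101. The likelihood ratio test of edgeR called 9 members at stage 4 and 15 at early stage 5 over stage 3, against 17 and 24. Over all genes it called 735 and 761, against 1142 and 891. In c cells alone 8, 2 and 8 members were called for stage 4 over stage 3, early stage 5 over stage 4 and early stage 5 over stage 3, and in p cells alone 11, 2 and 14. Over all genes the numbers were 500, 46 and 426 in c cells and 653, 67 and 498 in p cells. With 1 library left out the counts of members ran from 9 to 20, 2 to 4 and 12 to 26 in the same 3 comparisons. The lowest came without st4_c1 or st4_c2 in the first, without st4_c1 in the second and without st5e_c1 or st5e_p1 in the third, and the cause was not tested. The replicate numbers did not pair the libraries (correlations of deviations -0.0244 to 0.0345 between same-numbered libraries), and with the number as a replicate block 15, 4 and 20 members were called, and 0 in each comparison of regions and in the interaction.

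The log2 ratio of the summed CPM of a class at early stage 5 over stage 3 with library sizes alone was -0.41 for bromodomain proteins, 0.43 for remodelers, -0.15 for chromobox proteins, -1.01 for core histones, 0.66 for high mobility group proteins, -0.53 for acetyltransferases, 0.69 for chaperones, -0.48 for deacetylases, -0.23 for methyltransferases, -0.42 for linker histones, 0.042 for methyl-CpG-binding proteins, -0.46 for other members and 0.12 for all members. Without its best-counted member a class had -0.41 (bromodomain), -1.58 (chromobox), -1.30 (core histones), 0.35 (chaperones), -0.47 (deacetylases), 0.68 (linker histones) and 1.39 (methyl-CpG-binding).

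With 2 or 3 libraries a group and no mother shared between stages, the comparisons cannot tell stage from mother, and 47.5% of the better-counted members scattered within a group from the limit of 3 counts to 10 CPM or more. The part of sequencing depth in this scatter was not tested. Where a gene is split into models, its models are not separate observations. Poly(A) selection leaves histone mRNAs without a tail unmeasured.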
